A study of Mus musculus with 4 samples.

Results

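Copying the genome depends on a set of genes that cells transcribe as they enter and pass through S phase, and 34 of these DNA replication and S phase genes are described here in the embryonic and newborn mouse mammary gland. They were taken by symbol from a fixed list of S phase markers, with no filter on their levels, and make up 34 of the 30406 genes shared by the gene lists of all 4 libraries. The list was chosen with earlier results of these data known. By role, 8 belong to the replicative helicase, 5 to origin licensing and the S phase checkpoint, 6 to the enzymes of the fork, 3 to the supply of deoxynucleotides, 4 to DNA repair and 8 to the handling of chromatin and histones.

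The libraries are single-cell RNA-seq (10x Chromium) of mammary tissue of wild-type female mice labelled C57B6 (B6/N in the study's methods), with 1 library for each of embryonic days E13.5, E14.5 and E15.5 and 1 for P0, the day of birth. No group was treated or carried a transgene. Embryos of several litters were pooled within a stage, each stage was dissected in its own session, and cells were sorted as EpCAM+ (epithelial) or EpCAM- (mesenchymal) after removal of CD45+, CD31+ and Ter119+ cells. With 1 library a stage there is no replicate and no test, so the stage, the library and the dissection session cannot be told apart. The same holds for the dissociation, which at P0 used other enzyme amounts and a lysis of red blood cells. E15.5 was counted with another Cell Ranger version and gene list, so steps to and from E15.5 carry that difference as well. Every interval below is an exact 95% interval for counting error only. The kept cells have at least 5000 UMIs (unique molecular identifiers, 1 per counted transcript) and at most 6% mitochondrial UMIs, which leaves 235, 76, 816 and 503 cells in stage order. Their median depth was 17908, 25207, 24646.5 and 9226 UMIs, and each cell was thinned at random to 5000 UMIs so that levels could be set side by side. A cell was called epithelial or mesenchymal by the larger of its summed *Epcam*, *Krt8*, *Krt18*, *Krt5* and *Krt14* UMIs and its summed *Col1a1*, *Col1a2* and *Col3a1* UMIs, since the tables do not carry the sort gate. This gave 98, 45, 532 and 230 epithelial cells and 135, 31, 283 and 273 mesenchymal cells in stage order, and 3 cells with equal sums were left out of both. The study, which set skin cells aside and kept somewhat fewer cells in all, counted fewer mammary epithelial cells at every stage and far fewer at E13.5. The epithelial groups here are therefore not mammary epithelium alone. By those counts, most of the E13.5 epithelial group lies outside the study's mammary epithelium, so its values do not describe the mammary bud. No barcode sequence was shared by kept cells of different libraries.

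Before S phase, the helicase made of Mcm2 to Mcm7 is loaded on origins by Cdc6 and its partners, and loading is held off after S phase begins by geminin (*Gmnn*). Cdc45 and the GINS complex then switch the helicase on, polymerases held by the clamp PCNA copy the opened strands, and new histones are placed behind the fork. Many of these genes are targets of the E2F transcription factors, which cyclin-dependent kinases release from the retinoblastoma protein as a cell commits to dividing. The mammary bud is a small invagination of the embryonic skin inside a dense mesenchyme, and it sprouts and branches into a fat pad before birth.

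The promoters of the genes carry the letters known from E2F and NF-Y sites more often than promoters at large. RefSeq promoters (250 bases before to 50 after the gene's start, GRCm38.p6) were found for 25 of the 34 genes, with 29 promoters among them. The words TTTCCCGC, TTTCGCGC, TTTGCCGC or TTTGGCGC, on either strand and allowing overlap, stood in the promoters of 11 of the 25 genes, that is in 11 of 29 promoters (37.9%) against 2.26% of all 32851 promoters in the table. The word CCAAT, read by NF-Y, was present in 62.1% of the 29 promoters and 37.4% of all. A match is a string of letters and not a mapped binding site. The 4 helicase promoters below hold 2 or 3 such E2F words each, *Pold3* holds 1, and *Rrm2* holds none. These 4 are the only helicase promoters with such words. The other helicase promoters found, those of *Mcm2* and *Cdc45* and a second promoter of *Mcm7*, hold none. The last pair is shown because *Pold3* had the smallest and *Rrm2* the largest fall from E13.5 to P0 in epithelial cells. Capitals mark the E2F words and CCAAT on either strand, and matches overlap in *Mcm5*, *Mcm6* and *Mcm7*.
Mcm3 (chr1:20820263-20820562, minus strand): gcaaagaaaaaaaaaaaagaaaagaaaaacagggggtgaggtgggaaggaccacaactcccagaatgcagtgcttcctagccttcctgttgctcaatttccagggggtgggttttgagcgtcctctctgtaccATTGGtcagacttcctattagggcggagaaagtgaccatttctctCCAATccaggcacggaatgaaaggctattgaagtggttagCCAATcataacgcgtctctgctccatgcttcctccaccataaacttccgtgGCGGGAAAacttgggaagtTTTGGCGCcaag
Mcm5 (chr8:75109259-75109558, plus strand): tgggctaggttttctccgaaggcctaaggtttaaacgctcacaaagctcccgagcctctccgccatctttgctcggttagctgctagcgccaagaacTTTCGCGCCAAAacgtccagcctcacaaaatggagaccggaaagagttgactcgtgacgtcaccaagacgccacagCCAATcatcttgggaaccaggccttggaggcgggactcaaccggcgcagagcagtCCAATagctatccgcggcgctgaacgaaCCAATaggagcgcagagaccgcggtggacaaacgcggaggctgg
Mcm6 (chr1:128359656-128359955, minus strand): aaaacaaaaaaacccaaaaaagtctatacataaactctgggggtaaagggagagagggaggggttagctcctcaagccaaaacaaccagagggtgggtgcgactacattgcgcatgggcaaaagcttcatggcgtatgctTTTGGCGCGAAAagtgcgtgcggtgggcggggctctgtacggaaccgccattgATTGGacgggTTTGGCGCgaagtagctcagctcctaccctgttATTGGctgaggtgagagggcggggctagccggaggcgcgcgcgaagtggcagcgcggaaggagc
Mcm7 (chr5:138171834-138172133, minus strand): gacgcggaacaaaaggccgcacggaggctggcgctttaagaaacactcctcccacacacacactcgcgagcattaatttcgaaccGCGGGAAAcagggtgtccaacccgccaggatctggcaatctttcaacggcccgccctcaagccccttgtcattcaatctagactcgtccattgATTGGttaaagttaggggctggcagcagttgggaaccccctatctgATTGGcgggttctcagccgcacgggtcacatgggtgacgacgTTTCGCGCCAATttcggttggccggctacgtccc
Pold3 (chr7:100121453-100121752, minus strand): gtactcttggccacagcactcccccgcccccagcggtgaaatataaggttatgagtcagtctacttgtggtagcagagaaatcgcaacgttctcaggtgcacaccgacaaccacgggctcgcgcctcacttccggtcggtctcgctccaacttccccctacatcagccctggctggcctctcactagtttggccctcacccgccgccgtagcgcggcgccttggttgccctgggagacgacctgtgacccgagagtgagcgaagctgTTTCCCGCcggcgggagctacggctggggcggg
Rrm2 (chr12:24708004-24708303, plus strand): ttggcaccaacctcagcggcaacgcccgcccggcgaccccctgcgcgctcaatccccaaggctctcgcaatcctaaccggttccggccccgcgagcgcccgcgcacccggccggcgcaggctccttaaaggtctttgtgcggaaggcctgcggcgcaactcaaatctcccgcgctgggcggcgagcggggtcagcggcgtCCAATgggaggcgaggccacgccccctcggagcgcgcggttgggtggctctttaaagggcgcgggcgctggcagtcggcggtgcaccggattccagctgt

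The genes were far lower at birth than at E13.5 in both the epithelial and the mesenchymal groups, and the order of these groups turned. Their summed level, in CPM (UMIs per 1000000 UMIs) of the thinned cells, was 2133, 1378, 1006 and 656 CPM in epithelial cells in stage order and 2332, 2161, 1517 and 463 CPM in mesenchymal cells. Between E13.5 and P0, the sum was 3.25-fold lower (2.96 to 3.58) in epithelial cells and 5.04-fold lower (4.59 to 5.53) in mesenchymal cells. Epithelial cells held less than mesenchymal cells of the same library at the embryonic stages, with ratios of 0.915 (0.845 to 0.99), 0.637 (0.544 to 0.746) and 0.663 (0.626 to 0.702) in stage order, and more at P0, with a ratio of 1.42 (1.27 to 1.58). Within the epithelial groups, whose part of skin cells may differ by stage, the sum went down at each step. The ratios were 0.646 (0.567 to 0.734), 0.73 (0.649 to 0.824) and 0.651 (0.600 to 0.707). The step from E14.5 to E15.5 was smaller in epithelial cells with few epidermis marker UMIs, as given below. In the mesenchyme the interval of the step from E13.5 to E14.5 included 1, with a ratio of 0.927 (0.821 to 1.04), and the later steps were 0.702 (0.625 to 0.79) and 0.305 (0.279 to 0.334). In such sums, fewer cells in S phase and less of these RNAs per cell cannot be told apart.

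The median gene was not level in these comparisons, so the sums were also set against it. The median log2 ratio of all genes was -0.07 for P0 over E13.5 in epithelial cells and -0.36 in mesenchymal cells, and centring on it left the summed log2 ratio at -1.63 and -1.97. The E13.5 ratio of epithelium to mesenchyme went to a log2 of -0.01 with centring, whereas those at E15.5 and P0 kept their sign at -0.57 and 0.34. Without thinning, the E14.5 ratio went from a log2 of -0.65 to -0.28, and the group at that stage holds only 45 and 31 cells. The 6 epidermis markers (*Krt1*, *Krt10*, *Krtdap*, *Lor*, *Krt15*, *Sbsn*) summed to 451, 444, 1472 and 109 CPM in epithelial groups from E13.5 to P0, against 32.3 to 109 CPM in mesenchymal groups, and skin epithelium would pass the EpCAM gate. Their part in the levels by stage was not tested beyond the next value. Epithelial cells with at most 1 UMI of these markers gave summed levels of the 34 genes of 1026 CPM at E14.5 and 957 CPM at E15.5, further below the mesenchyme of those libraries. These levels also lay closer to each other than the 1378 and 1006 CPM of all epithelial cells. No interval was computed for this step in the filtered cells, so the epithelial fall from E14.5 to E15.5 is less certain. Skin cells with few UMIs of these markers were not set apart, and their part in the epithelial fall from E13.5 to P0 was not tested.

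In single cells the genes were spread over a long tail. The median epithelial cell held 7.5, 4, 3 and 3 UMIs of the 34 genes among its 5000, in stage order, and the median mesenchymal cell 8, 8, 5 and 2. The highest cell held 61, 27, 40 and 19 in the epithelium and 54, 46, 41 and 12 in the mesenchyme. Cells with 10 or more made up 37.8% (28.2 to 48.1) of epithelial and 43.0% (34.5 to 51.8) of mesenchymal cells at E13.5, and 3.48% (1.51 to 6.74) and 0.733% (0.0888 to 2.62) at P0. The whole distribution was lower at the last stage than at the first: from E13.5 to P0 the lower quartile went from 4 to 1 in both tissues and the upper quartile from 15 to 4 in the epithelium and from 15 to 3 in the mesenchyme. The tenth of cells with the most held 33.2% and 32.2% of these UMIs at E13.5 and 30.5% and 27.2% at P0.

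**Figure D1:**
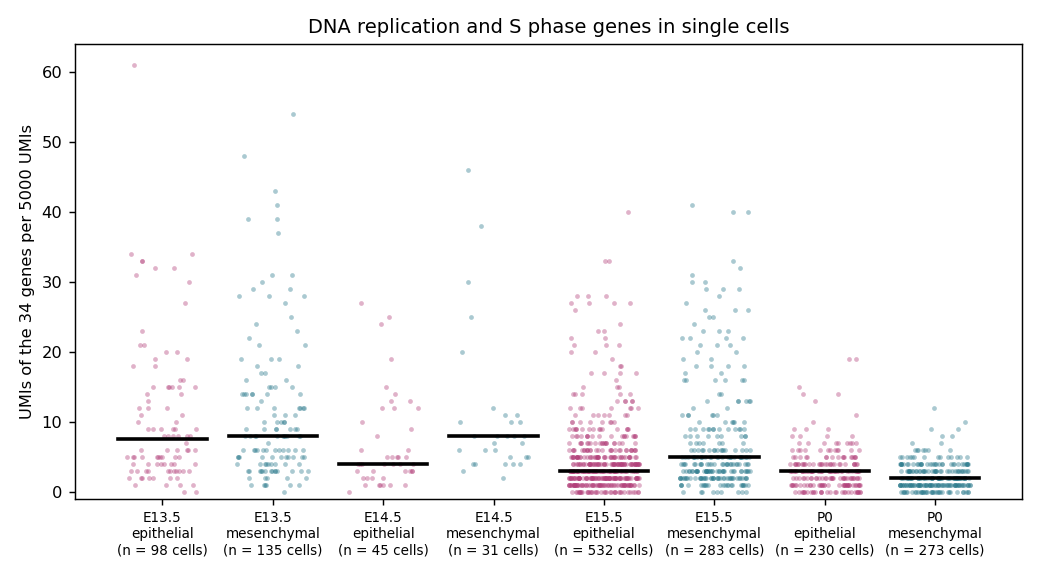
UMIs of the 34 genes in each kept cell after thinning to 5000 UMIs (vertical axis), by stage and tissue, with 1 point per cell and a bar at the median. The tail above 20 UMIs is present in the embryonic groups and absent at P0, where the highest cells hold 19 and 12 UMIs.

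The share of cells called in S phase was highest at E13.5 and lowest at P0 in both tissues. A cell was called S when Seurat's score for the 34 genes was above 0 and above its score for 54 G2/M genes. In the epithelial groups, which are not mammary epithelium alone, the share from E13.5 to P0 was 33.7% (33 of 98, 24.4 to 43.9), 24.4% (11 of 45, 12.9 to 39.5), 15.4% (82 of 532, 12.5 to 18.8) and 7.83% (18 of 230, 4.7 to 12.1). In the mesenchyme it was 46.7% (63 of 135, 38 to 55.4), 38.7% (12 of 31, 21.9 to 57.8), 26.1% (74 of 283, 21.1 to 31.7) and 3.66% (10 of 273, 1.77 to 6.63). The intervals of the tissues were apart at E15.5 and overlapped in the other libraries. Cells called G2/M made up 25.5%, 11.1%, 13% and 5.22% of epithelial cells and 18.5%, 25.8%, 19.4% and 1.10% of mesenchymal cells from E13.5 to P0.

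A call from a score is a range and not a cell type. Of the 1630 kept cells, 364 had an S score within 0.05 of the threshold, among them 93 of the 304 cells called S and 8 of the 10 mesenchymal cells called S at P0. The level against which scores were set also mattered. Scores computed within each library, whose control genes are drawn at that library's own levels, gave 19.4% and 24.4% at E13.5 and 31.7% and 20.9% at P0, so the order of these stages in the epithelium turned and the order in the mesenchyme was much reduced. The mean count of UMIs per cell, which uses no control genes, had E13.5 highest and P0 lowest in both tissues. The medians tied E15.5 with P0 in the epithelium and E13.5 with E14.5 in the mesenchyme. A call that required 10 or more member UMIs and more of them than of G2/M UMIs put E14.5 above E13.5 in the epithelium. The place of E14.5 was less settled. Epithelial cells with at most 1 epidermis UMI gave 37.3%, 12.9%, 15.0% and 7.32% in stage order, with E14.5 under E15.5. In the mesenchyme, E14.5 and E15.5 were at 25.8% and 26.5% without thinning and at 30.3% and 30.8% with a mitochondrial limit of 10%, and E13.5 and E14.5 at 47.9% and 48.5% with a minimum of 3000 UMIs.

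**Figure D2:**
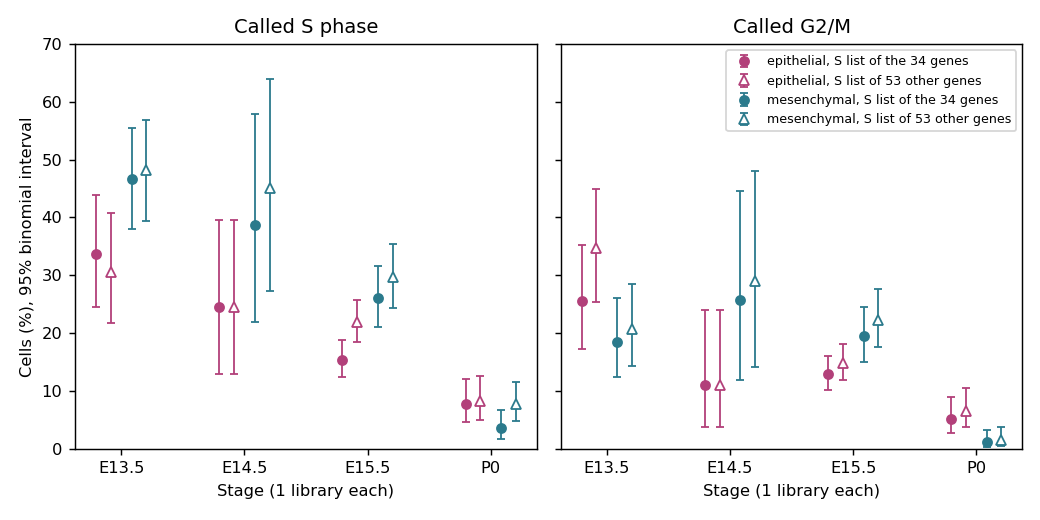
Share of kept cells called S (left) and G2/M (right) in percent, with exact 95% binomial intervals, by stage and tissue. Filled circles use the 34 genes as the S list and open triangles use 53 other replication genes; both have their highest S shares at E13.5 in the mesenchyme, 46.7% and 48.1%, and shares under 10% at P0.

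Replication genes outside both scores were higher in cells called S than in cells called neither S nor G2/M in the embryonic libraries, but they did not set S apart from G2/M. In cells called S at E13.5, 53 other replication genes gave 15.4 (14.1 to 16.8) UMIs per epithelial cell of 5000 UMIs, against 4.42 (3.8 to 5.13) in cells called neither. At E15.5 the values were 9.43 (8.77 to 10.1) and 3.49 (3.3 to 3.68) in the epithelium and 13.53 (12.7 to 14.4) and 4.25 (3.93 to 4.59) in the mesenchyme. Cells called G2/M held 10.9 (9.66 to 12.3) in the E13.5 epithelium and 16.8 (15.3 to 18.5) in its mesenchyme, where the S cells had 14.6 (13.7 to 15.6). At E15.5 they held 10.6 (9.88 to 11.4) and 13.2 (12.3 to 14.2). Among these 4 groups, the intervals of the G2/M and S classes were apart only in the E13.5 epithelium, where the S class was higher.

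At P0 the separation was smaller in the epithelium and not seen in the mesenchyme. Epithelial cells called S held 5.17 (4.17 to 6.33) UMIs of the other replication genes against 2.69 (2.47 to 2.93) in cells called neither, and cells called G2/M 10.2 (8.52 to 12.2). In the mesenchyme the 10 cells called S held 2.6 (1.7 to 3.81) against 2.61 (2.42 to 2.81), so the few mesenchymal S calls at birth did not differ from the rest beyond counting error.

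Histone genes, whose RNAs are made in bulk during S phase and mostly lack the poly(A) tail that these libraries capture, varied most between libraries. The 67 histone genes of the shared list gave 55.4 (52.9 to 58) UMIs per epithelial cell called S at E13.5 and 6.08 (5.34 to 6.89) in cells called neither. The mesenchymal S cells of the same library had 14.2 (13.3 to 15.2), well below the 50.3 (47.6 to 53.2) of its G2/M cells. At E15.5 the epithelial values were 3.63 (3.23 to 4.07) and 1.43 (1.31 to 1.55). E15.5 was counted with another Cell Ranger version and gene list, and whether that touches the histone genes was not tested. Cells called S or G2/M were also deeper before thinning in most groups, for example 22459 against 17354.5 median UMIs for S and neither in the E13.5 epithelium, but 7854.5 against 8785 in the P0 mesenchyme.

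**Figure D3:**
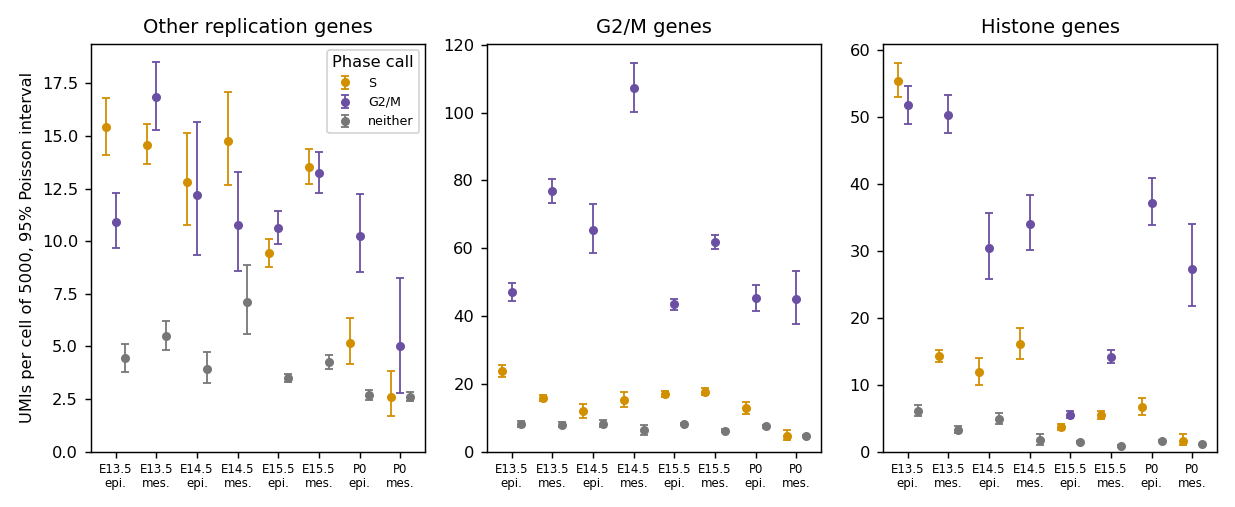
UMIs per cell of 5000 UMIs of 53 other replication genes, 54 G2/M genes and the histone genes, in cells called S, G2/M or neither with the 34 genes, by stage and tissue, with exact 95% Poisson intervals of the mean. The middle panel shows the genes that the G2/M call itself uses, so its differences restate the call. In the left panel the S and neither points are apart in every group except the P0 mesenchyme, where they are 2.60 and 2.61.

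Calls made with the 53 other replication genes in place of the 34 named many of the same cells in the embryonic libraries and few at P0. Both calls used the same G2/M score, so part of the overlap is built in, and the overlap due to chance was not computed. Of 304 cells called S with the 34 genes and 361 called with the other list, 171 were called by both, which is 56.3% of the calls by the 34 genes and 47.4% of the others. The overlap was 47 of 63 and of 65 in the E13.5 mesenchyme, 4 of 18 and of 19 in the P0 epithelium, and 1 of 10 and of 21 in the P0 mesenchyme. Within the classes made with the other list, the 34 genes summed to 10.5 (9.78 to 11.2) UMIs per mesenchymal cell called S at E15.5 and 3.6 (3.28 to 3.93) in cells called neither. The epithelial values at that stage were 6.11 (5.67 to 6.58) and 3.01 (2.83 to 3.21). Cells called G2/M held more of the 34 genes than those called S, at 12 (11.3 to 12.8) in the epithelium and 12.4 (11.5 to 13.3) in the mesenchyme. At P0 the S and neither values were 4.37 (3.48 to 5.42) and 2.77 (2.54 to 3.01) in the epithelium, and 2.62 (1.97 to 3.41) and 2.24 (2.06 to 2.44) in the mesenchyme, where the intervals overlapped.

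Gene by gene, the fall toward birth ran through nearly the whole list. A member was counted as moved when log2 of (CPM + 10) differed by 1.5-fold or more and at least 10 UMIs were present in the pair of groups. From E13.5 to P0, 29 of the 34 genes were lower in epithelial cells, where 24.5% of all genes tested were lower, and 32 were lower in mesenchymal cells, where 38.3% were lower. None of the 34 was higher in either tissue, where 22.0% and 16.6% of all genes were. The median log2 ratio of the 34 genes was -1.28 and -1.72, beside -0.07 and -0.36 for all genes. At least 30 UMIs over the pair left 17 genes counted as lower in the epithelium. That minimum also left fewer genes that could be counted: *Rrm2*, with 25 UMIs at E13.5 and 1 at P0, was under it. The share of all genes at that minimum was not counted. From E15.5 to P0, 14 were lower and 1 (*Pold3*) higher in epithelial cells (background 18.7% and 15.0%), and 29 were lower and none higher in mesenchymal cells (background 28.4% and 15.2%).

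The earlier steps were smaller and less certain. From E13.5 to E14.5, 14 genes were lower and 2 higher in the epithelium, against 14% (996 of 7109) and 21.8% of all genes tested, and 4 were lower and 2 higher in the mesenchyme, against 17.3% and 16.4%. From E14.5 to E15.5, 7 were lower in the epithelium and 12 in the mesenchyme, against 21.3% and 22.8% of all genes, and none was higher, against 1459 of 10035 genes in the epithelium and 15.7% in the mesenchyme. The share of 7 in 34 is close to the background. A second random draw of the thinning gave 11 lower and 4 higher for that epithelial step.

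Between the tissues, most of the 34 genes leaned to the mesenchyme at E14.5 and E15.5, where 28 and 29 were lower in epithelial cells by any size, and fewer passed 1.5-fold. The share of all genes lower by any size was not counted. At E14.5 the median log2 ratio was -0.60 for the 34 genes and 0.04 for all genes tested. Epithelial cells were lower for 10 and higher for 3 of the 34 genes at E13.5 (background 26.8% and 15.3%), so the count at this stage is near that of all genes. They were lower for 11 and higher for 1 at E14.5, where only 24 of the 34 had at least 10 UMIs (background 24.4% and 26.9%). At E15.5 they were lower for 14 and higher for none (19.5% and 18.0%). At P0 they were higher for 6 and lower for none (27.7% and 19.3%). Only 23 of the 34 had the 10 UMIs that all genes of the background have, and 6 in 23 is near the background share. The median log2 ratio of the 34 genes was -0.41 at E15.5 and 0.24 at P0, and that of all genes -0.03 and 0.17. Without thinning, 13 of the 34 were higher in epithelial cells at P0, and 11 with 1 CPM in place of 10 added to both sides. The share of all genes higher was not counted at either setting, so these counts cannot be set against a background. Adding 10 CPM understates ratios of genes at low levels, and most members were under 10 CPM in the P0 mesenchyme.

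**Figure D4:**
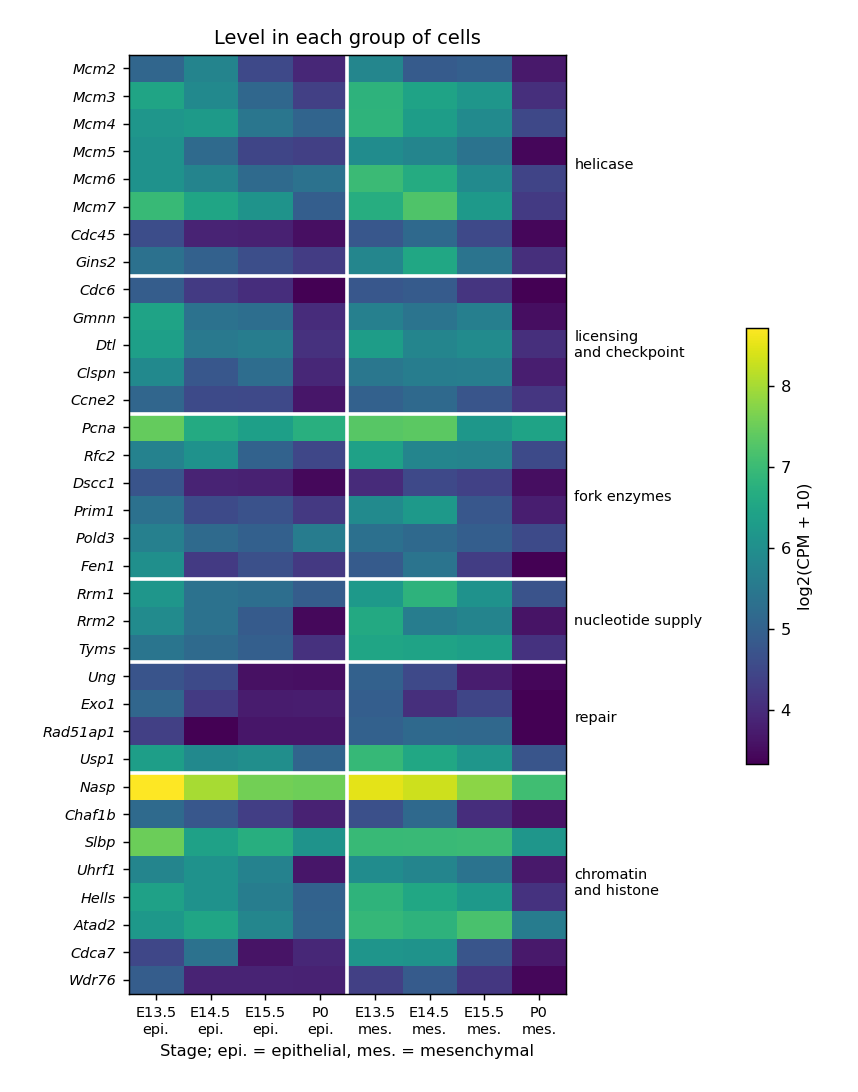
Level of each of the 34 genes as log2(CPM + 10) in the 8 groups of cells, with epithelial groups on the left and mesenchymal groups on the right, genes ordered by role and colour running from dark blue (low) to yellow (high). The P0 columns are the darkest of each tissue for most genes, and *Nasp*, *Pcna* and *Slbp* stay above the others there.

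The helicase genes had the highest epithelial to mesenchymal ratio of the 6 role groups at birth, with an interval that overlapped those of all groups but the chromatin and histone genes. As a group, the 8 genes were 11.5-fold lower (8.88 to 15.1) at P0 than at E13.5 in mesenchymal cells and 3.88-fold lower (3.11 to 4.86) in epithelial cells. The ratio of epithelium to mesenchyme was 0.756 (0.637 to 0.895) at E13.5, 0.573 (0.504 to 0.652) at E15.5 and 2.24 (1.66 to 3.04) at P0. All 8 were counted as lower from E13.5 to P0 in the mesenchyme and 7 in the epithelium, *Cdc45* being under 10 UMIs there. Of all genes tested, 38.3% and 24.5% were lower in these tissues. Of 8, 5 were lower in epithelium than mesenchyme at E15.5 and 3 (*Mcm5*, *Mcm6* and *Mcm7*) higher at P0, beside 19.5% and 27.7% of all genes tested. *Cdc45* was under 10 UMIs at P0, and so few genes do not set the P0 count apart from its background share.

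Mcm2 to Mcm7 form the ring that unwinds DNA. Levels are given in stage order, from E13.5 to P0. *Mcm2* was at 24.5, 44.4, 12.8 and 5.22 CPM in epithelial cells and 45.9, 19.4, 21.2 and 2.93 CPM in mesenchymal cells. *Mcm3* was at 79.6, 48.9, 24.8 and 10.4 CPM and 102, 77.4, 61.5 and 6.59 CPM. *Mcm4* was at 61.2, 66.7, 33.8 and 23.5 CPM in epithelium and 105, 71, 50.2 and 12.5 CPM in mesenchyme. For these 3 genes the P0 group was the lowest of its tissue. From E13.5 to P0, *Mcm3* was 7.63-fold lower (3.91 to 16) in epithelial and 16-fold lower (7.71 to 35.3) in mesenchymal cells.

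*Mcm5* was at 57.1, 26.7, 12 and 10.4 CPM in epithelial cells and 51.9, 45.2, 31.8 and 0.733 CPM in mesenchymal cells, where P0 held 1 UMI. *Mcm6* was at 57.1, 44.4, 26.3 and 31.3 CPM and 119, 90.3, 50.2 and 11.7 CPM. *Mcm7* was at 114, 80.0, 58.3 and 20.9 CPM in epithelium and 93.3, 142, 65.7 and 8.79 CPM in mesenchyme. At P0 the epithelial level of *Mcm6* was 2.67-fold higher (1.44 to 5.15) than the mesenchymal one, that of *Mcm7* was 2.37-fold higher (1.14 to 5.21), and that of *Mcm5* was 14.2-fold higher (2.11 to 609), the last from 12 and 1 UMIs. At E15.5 *Mcm6* stood the other way, at 0.524 (0.372 to 0.74) of the mesenchymal level, and *Mcm7* was at 0.887 (0.681 to 1.16). *Mcm6* fell least of the ring in the epithelium, 1.83-fold lower (1.07 to 3.08) at P0 than at E13.5, against 10.1-fold lower (5.86 to 18.5) in the mesenchyme.

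*Gins2*, a subunit of the GINS complex, was at 30.6, 22.2, 14.7 and 9.57 CPM in epithelial cells and 45.9, 83.9, 32.5 and 6.59 CPM in mesenchymal cells, its highest group being the E14.5 mesenchyme. *Cdc45*, its partner on the helicase, was at 0.733 to 25.8 CPM over the 8 groups from 57 UMIs in all.

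The licensing and checkpoint genes fell steeply in both tissues, with overlapping intervals. The 5 genes together were 11.7-fold lower (7.52 to 19) at P0 than at E13.5 in epithelial cells and 9.44-fold lower (6.19 to 14.9) in mesenchymal cells. All 5 were counted as lower in each tissue, beside 24.5% and 38.3% of all genes tested. Without thinning, the epithelial fall was smaller, from 254 to 42.8 CPM, where the thinned P0 level was 20.9 CPM. In mesenchymal cells the unthinned sum went from 256 to 19.9 CPM. *Gmnn*, which encodes geminin, was at 77.6, 31.1, 28.9 and 6.09 CPM in epithelial and 41.5, 32.3, 40.3 and 1.47 CPM in mesenchymal cells. *Dtl*, the substrate receptor that has the licensing factor Cdt1 destroyed in S phase, was at 73.5, 35.6, 39.1 and 6.96 CPM and 71.1, 45.2, 50.9 and 6.59 CPM. From E13.5 to P0 *Gmnn* was 12.7-fold lower (5.62 to 33.8) in the epithelium and *Dtl* 10.6-fold lower (4.83 to 26.3).

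*Clspn*, the checkpoint mediator claspin, was at 49, 17.8, 28.2 and 5.22 CPM in epithelium and 34.1, 38.7, 39.6 and 3.66 CPM in mesenchyme. *Ccne2*, an E-type cyclin that drives entry into S phase, was at 24.5, 13.3, 12.8 and 2.61 CPM and 22.2, 25.8, 17 and 8.06 CPM. *Cdc6* had 55 thinned UMIs in all and none at P0 in either tissue, after 20.4 and 17.8 CPM at E13.5. Before thinning, the P0 groups held 4 (epithelial) and 3 (mesenchymal) UMIs of *Cdc6*. Set against the 3 counts that a count of 0 allows over each P0 group, *Cdc6* was 7.82-fold lower at P0 in epithelial cells and 8.09-fold lower in mesenchymal cells. These values leave out the counting error of the E13.5 UMIs and are not lower limits.

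By summed level, the fork enzymes had the smallest fall of the 6 role groups, with intervals that overlapped those of the chromatin and histone genes. This sum was largely *Pcna* at P0, with 111 of 190 UMIs in epithelial and 106 of 149 in mesenchymal cells, so it does not describe each gene of the group. Together the 6 genes were 2.12-fold lower (1.72 to 2.63) in epithelial and 3.03-fold lower (2.45 to 3.75) in mesenchymal cells at P0. Their summed epithelial level did not fall beyond counting error from E15.5 to P0, with a ratio of 1.09 (0.908 to 1.29). *Pcna*, the sliding clamp that also serves DNA repair, was at 165, 88.9, 73.3 and 96.5 CPM in epithelial and 149.6, 155, 62.2 and 77.7 CPM in mesenchymal cells. It did not fall from E15.5 to P0 in either tissue, with ratios of 1.32 (1.03 to 1.67) and 1.25 (0.932 to 1.68). *Pold3*, an accessory subunit of DNA polymerase delta, was at 40.8, 26.7, 21.4 and 38.3 CPM and 29.6, 25.8, 20.5 and 13.2 CPM. Its ratio of P0 to E13.5 in the epithelium was 0.937 (0.541 to 1.68), the nearest to 1 of the 34, from 44 and 20 thinned UMIs. Without thinning, *Pold3* fell further there, from 57.3 CPM (117 UMIs) at E13.5 to 40.2 CPM (105 UMIs) at P0. At P0 its epithelial level was 2.9-fold higher (1.64 to 5.33) than the mesenchymal one.

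*Rfc2*, *Prim1* and *Fen1* were counted as lower from E13.5 to P0 in both tissues, and *Dscc1* was under 10 UMIs in each. Of all genes tested, 24.5% were lower in epithelial and 38.3% in mesenchymal cells. *Rfc2*, a subunit of the clamp loader, was at 42.9, 57.8, 22.6 and 12.2 CPM in epithelium and 75.6, 45.2, 43.8 and 13.2 CPM in mesenchyme. *Prim1*, the catalytic subunit of primase, was at 30.6, 13.3, 15.8 and 8.7 CPM and 50.4, 64.5, 17.7 and 3.66 CPM. *Fen1*, the nuclease that trims Okazaki fragments, was at 55.1, 8.89, 15 and 8.7 CPM and 19.3, 32.3, 9.89 and 0 CPM. *Fen1* was higher in epithelial than mesenchymal cells at E13.5, 2.86-fold higher (1.43 to 6.04), and had 10 UMIs in the P0 epithelium and none in the P0 mesenchyme. Set against 3 counts in that mesenchyme, its epithelial level was 3.96-fold higher. This value leaves out the counting error of the 10 UMIs and is not a lower limit. Before thinning, the P0 mesenchyme held 2 UMIs of *Fen1*. *Dscc1*, a subunit of an alternative clamp loader, was at 0.87 to 16.3 CPM from 44 UMIs.

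The genes of nucleotide supply had the lowest epithelial share of the 6 role groups in each embryonic library, though the interval overlapped those of the repair and helicase genes at E13.5, of all other groups at E14.5 and of the repair genes at E15.5. The epithelial to mesenchymal ratio of the 3 together was 0.623 (0.464 to 0.83), 0.405 (0.221 to 0.724), 0.396 (0.326 to 0.482) and 1.09 (0.65 to 1.8) in stage order. *Rrm1* and *Rrm2* encode the large and small subunits of ribonucleotide reductase, which makes deoxynucleotides. *Rrm1* was at 61.2, 31.1, 28.9 and 20.0 CPM in epithelial and 65.2, 103, 57.2 and 16.1 CPM in mesenchymal cells. *Rrm2* was at 51, 31.1, 19.2 and 0.87 CPM and 87.4, 38.7, 44.5 and 2.2 CPM. The subunits parted at birth, where *Rrm1* kept 23 and 22 UMIs and *Rrm2* had 1 and 3.

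*Rrm2* had the lowest ratio of P0 to E13.5 of the list on the scale with 10 CPM added (log2 -2.49 in epithelial and -3.00 in mesenchymal cells). From its UMIs it was 58.7-fold lower (9.6 to 2409) and 39.8-fold lower (13 to 198), while *Rrm1* was 3.06-fold lower (1.72 to 5.52) and 4.04-fold lower (2.37 to 7.09). The epithelial value of *Rrm2* rests on 1 thinned UMI at P0. Without thinning, *Rrm2* went from 57.8 to 4.21 CPM (11 UMIs) in epithelial cells and from 90.5 to 1.99 CPM (5 UMIs) in mesenchymal cells. *Tyms*, thymidylate synthase, was at 32.7, 26.7, 21.1 and 6.96 CPM in epithelium and 80.0, 77.4, 72.8 and 7.33 CPM in mesenchyme. At E15.5 its epithelial level was 3.46-fold lower (2.47 to 4.88) than the mesenchymal one, and at P0 the ratio was 0.95 (0.326 to 2.67).

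Of the repair genes, only *Usp1* was well counted. *Usp1*, the deubiquitinase of PCNA and FANCD2, was at 71.4, 48.9, 53.4 and 23.5 CPM in epithelial and 113, 83.9, 61.5 and 16.8 CPM in mesenchymal cells. The 4 genes together were 3.91-fold lower (2.55 to 6.09) at P0 in epithelial cells and 10.1-fold lower (6.48 to 16.4) in mesenchymal cells. This sum was largely *Usp1* at P0, with 27 of 36 UMIs in epithelial and 23 of 24 in mesenchymal cells. It does not describe each gene of the group. *Ung*, the uracil glycosylase, was at 0.733 to 22.2 CPM, *Exo1*, a 5′ to 3′ exonuclease, at 0 to 24.5 CPM and *Rad51ap1*, a DNA repair gene, at 0 to 25.8 CPM. *Rad51ap1* had the largest tissue difference of the list at E15.5, with 7 epithelial and 36 mesenchymal UMIs, 9.67-fold lower (4.24 to 25.7) in the epithelium.

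The chromatin and histone genes held the largest share of the UMIs. *Nasp*, a chaperone of histones H3 and H4, was at 414, 249, 182 and 177 CPM in epithelial and 356, 309.7, 213 and 125 CPM in mesenchymal cells. *Slbp*, which binds the stem-loop of histone mRNAs, was at 173, 75.6, 94.7 and 58.3 CPM and 114, 116, 119 and 61.5 CPM. From E13.5 to P0 *Nasp* was 2.35-fold lower (1.92 to 2.87) and 2.85-fold lower (2.34 to 3.5), and *Slbp* 2.98-fold lower (2.14 to 4.16) and 1.85-fold lower (1.34 to 2.56), in epithelial and mesenchymal cells. Both remained well detected at birth, *Nasp* in 57.4% and 39.9% of the epithelial and mesenchymal cells.

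*Uhrf1* and *Hells* act in the copying of DNA methylation. *Uhrf1*, which brings Dnmt1 to newly copied DNA, was at 44.9, 57.8, 42.5 and 2.61 CPM in epithelium and 51.9, 45.2, 31.8 and 2.93 CPM in mesenchyme. *Hells*, a chromatin remodeller, was at 75.5, 57.8, 39.1 and 22.6 CPM and 105, 83.9, 65 and 7.33 CPM. At P0 *Uhrf1* had 3 and 4 UMIs and was 17.2-fold lower (5.17 to 89.8) and 17.7-fold lower (6.33 to 68.5) than at E13.5. *Hells* was 14.4-fold lower (7.37 to 31.2) in the mesenchyme and 3.34-fold lower (1.97 to 5.74) in the epithelium, and at P0 its epithelial level was 3.09-fold higher (1.44 to 7.17) than the mesenchymal one.

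*Cdca7*, a partner of *Hells*, was at 12.2, 31.1, 2.26 and 5.22 CPM in epithelial and 60.7, 58.1, 17 and 2.93 CPM in mesenchymal cells, with 6 epithelial UMIs at each of E13.5, E15.5 and P0. *Atad2*, a bromodomain ATPase of chromatin, was at 63.3, 80.0, 46.2 and 23.5 CPM and 111, 103, 134 and 38.1 CPM, with its highest group in the E15.5 mesenchyme. At E15.5 *Atad2* was 2.9-fold lower (2.3 to 3.67) and *Cdca7* 7.52-fold lower (2.99 to 22.5) in epithelial than in mesenchymal cells. *Chaf1b*, a subunit of the CAF-1 histone chaperone, was at 2.2 to 26.5 CPM and *Wdr76*, a WD-repeat protein, at 0.733 to 20.4 CPM.

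A few genes made up much of what was left at birth. *Nasp*, *Pcna* and *Slbp*, the 3 members with the most UMIs over all cells, held 35.3% (32.4 to 38.3) of the member UMIs in the E13.5 epithelium and 26.6% (24.4 to 28.8) in the mesenchyme, but 50.5% (46.9 to 54.2) and 57.0% (53 to 60.9) at P0. The other 31 genes were 4.25-fold lower (3.74 to 4.84) at P0 than at E13.5 in epithelial cells and 8.59-fold lower (7.52 to 9.84) in mesenchymal cells. For the 3 genes the values were 2.27-fold (1.96 to 2.63) and 2.35-fold (2.03 to 2.71), so the wider fall of the mesenchyme lay in the other 31. Grouping these 3 was chosen after their values were seen.

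**Figure D5:**
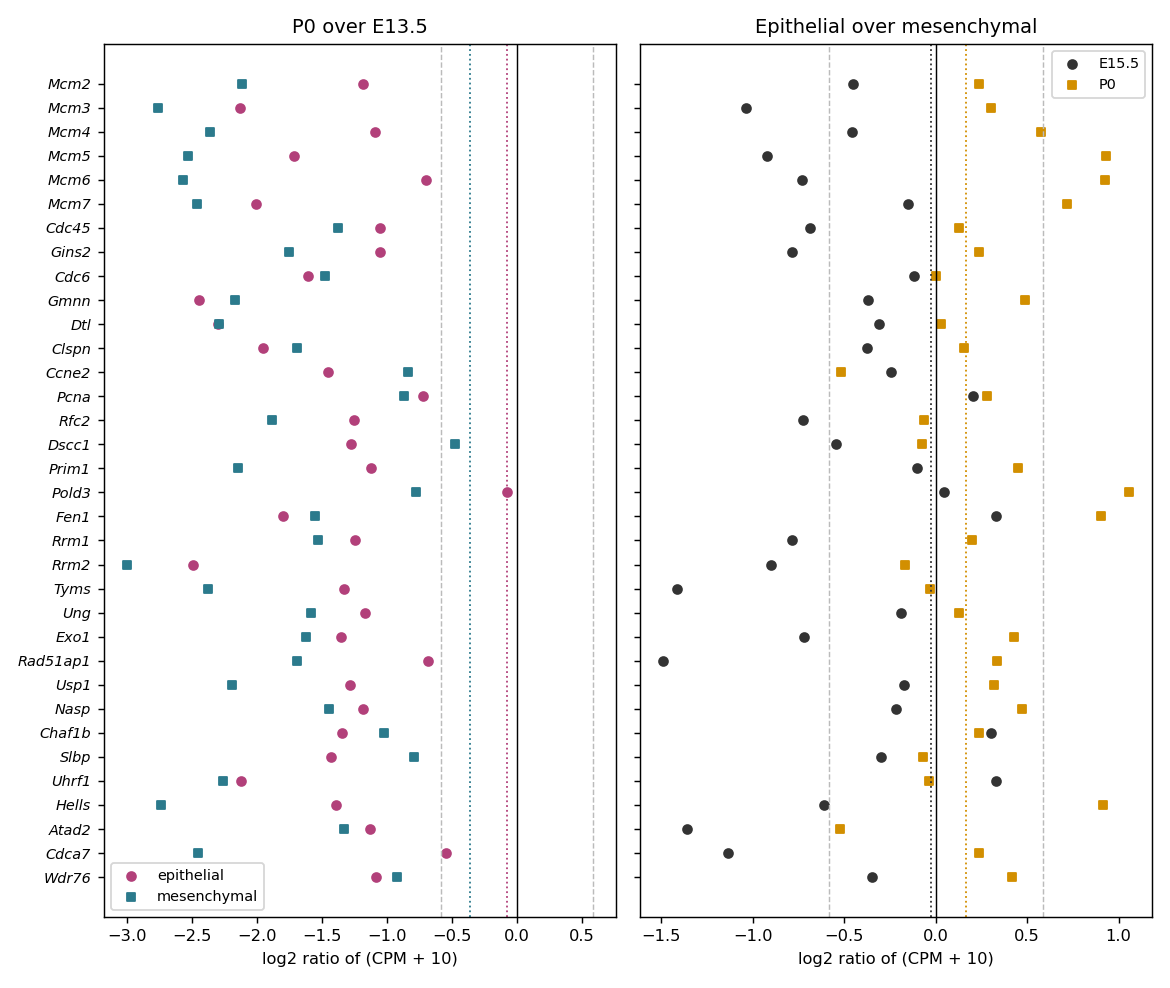
log2 ratio of (CPM + 10) of each gene for P0 over E13.5 in each tissue (left) and for epithelial over mesenchymal cells at E15.5 and P0 (right). Dashed lines mark 1.5-fold and dotted lines the median of all genes; on the left all points lie below 0, from -0.07 for *Pold3* to -3.00 for *Rrm2*, and on the right the E15.5 points lie mostly below 0 and the P0 points mostly above.

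The genes also differed in how much higher they were in S cells. At E15.5, the library with the most cells, cells were classed with the 53 other replication genes, and S cells were compared with those called neither within each tissue, 117 with 336 in the epithelium and 84 with 136 in the mesenchyme. *Rrm2* had 15.4 against 1.79 UMIs per 100 cells in the epithelium, 8.62-fold (3.28 to 26.5), and 8.5-fold (2.87 to 34.1) in the mesenchyme. *Tyms* gave 4.7-fold (2.1 to 11) and 4.25-fold (2.34 to 8.1), and *Mcm2* 7.38-fold (2.94 to 20.9) and 3.93-fold (1.55 to 11.2). These genes were several-fold higher in S cells of both tissues.

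*Nasp*, with 94 against 71.7 UMIs per 100 cells in the epithelium, gave 1.31-fold (1.04 to 1.65) there and 1.79-fold (1.34 to 2.38) in the mesenchyme. *Slbp* gave 1.44-fold (1.03 to 1.99) and 2.32-fold (1.55 to 3.49), and *Pcna* 1.55-fold (1.06 to 2.25) and 3.32-fold (1.92 to 5.88). The most abundant genes thus had smaller ratios in the epithelium than *Rrm2*, *Tyms* and *Mcm2*. *Pold3* gave 1.13-fold (0.546 to 2.21) and 3.51-fold (1.24 to 11.3), and *Fen1* 1.44-fold (0.442 to 4.13) and 0.81-fold (0.0732 to 5.65), so that 1 lay inside the interval for both genes in the epithelium and for *Fen1* in the mesenchyme. The epithelial interval also held 1 for *Usp1*, 1.19-fold (0.72 to 1.9), *Mcm7*, 1.49-fold (0.982 to 2.24), and several genes with fewer UMIs. In the mesenchyme it did so for *Rfc2*, 1.28-fold (0.664 to 2.44), and other less counted genes. The difference between tissues was not tested.

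The 11 genes with E2F words in a promoter had a median log2 ratio of P0 to E13.5 of -1.72 in epithelial and -2.45 in mesenchymal cells, and the 14 with a promoter but no such word -1.18 and -1.54. The ranges overlapped, from -2.30 to -0.07 and from -2.49 to -0.68 in the epithelium.

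Other genes of the same machinery moved with the 34. The 53 other replication genes summed to 1957, 1404, 1066 and 656 CPM in epithelial and 2367, 2200.0, 1683 and 527 CPM in mesenchymal cells. From E13.5 to P0 in epithelial cells, 42 of them had at least 10 UMIs, of which 33 were lower and none higher. They ran from *Rnaseh2a* (log2 0.15) to *Dut* (-2.42), and 24.5% of all genes tested were lower and 22.0% higher. In mesenchymal cells 47 had at least 10 UMIs, of which 42 were lower and none higher, down to *Pclaf* (-4.53). The shares of all genes there were 38.3% and 16.6%. Their summed ratio of epithelium to mesenchyme was 0.633 (0.599 to 0.669) at E15.5 and 1.24 (1.12 to 1.38) at P0, the same order as for the 34 genes. Gene by gene at P0, however, their median log2 ratio was 0.07, below the 0.17 of all genes. There 38 of the 53 had at least 10 UMIs, of which 9 were at least 1.5-fold higher and 2 lower, beside 27.7% and 19.3% of all genes tested. Of the 54 G2/M genes, 45 had at least 10 UMIs over E13.5 and P0 in epithelial cells, of which 37 were lower and 1 (*Tubb4b*, log2 1.26) higher. *Birc5*, which encodes survivin, was lowest there (-2.50). In mesenchymal cells 50 had at least 10 UMIs, of which 47 were lower and none higher. The shares of all genes are those just given for these steps.

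Regulators upstream fell less. The 15 genes of the E2F, retinoblastoma and S phase cyclin group summed to 484, 444, 388 and 233 CPM in epithelial and 520.0, 568, 361 and 218 CPM in mesenchymal cells, 2.08-fold lower (1.74 to 2.48) and 2.39-fold lower (2.04 to 2.8) at P0 than at E13.5. Of the 15, 8 were lower and 1 (*E2f5*, log2 0.69) higher in epithelial cells, with *E2f7* lowest (-2.32), beside 24.5% and 22.0% of all genes tested. In mesenchymal cells 10 were lower and none higher, with *Ccna2*, the cyclin of S phase and G2, lowest (-2.77), beside 38.3% and 16.6%. Their epithelial to mesenchymal ratio was 1.08 (0.966 to 1.2) at E15.5 and 1.07 (0.905 to 1.27) at P0, both with 1 inside the interval.

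Among 4142 genes found in at least 10% of the E15.5 cells, those whose log level tracked the sum of the 34 genes best from cell to cell were *Top2a*, *Smc2*, *Pclaf*, *Hmgb2* and *Hist1h2ap*, of which *Pclaf* is in the list of other replication genes and *Top2a* and *Hmgb2* in the G2/M list. The Pearson correlations, over 532 epithelial and 283 mesenchymal cells of 1 library at equal depth, were 0.55 and 0.55 for *Top2a*, 0.53 and 0.50 for *Smc2*, 0.50 and 0.61 for *Pclaf*, 0.47 and 0.52 for *Hmgb2*, and 0.44 and 0.63 for *Hist1h2ap*. At P0 the same genes gave 0.29 to 0.32 in epithelial cells, and *Top2a* gave 0.13 in mesenchymal cells, where few cells carry these UMIs.

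Cells with high counts of blood markers were found in 1 group. The P0 mesenchymal group held 4 cells with 500 or more UMIs of erythroid markers and 2 with 50 or more of immune markers, and erythroid markers summed to 11174 CPM there against 0 to 17.4 CPM elsewhere, and immune markers to 130 CPM against 0 to 2.61 CPM. These 6 cells carried 2 UMIs of the 34 genes and no S call, and without them the summed level in that group was 472 CPM in place of 463. The endothelial, muscle, pericyte, and neural crest and Schwann lists were at most at 104 CPM in any group. The epithelial and mesenchymal marker lists, which share genes with the rule that split the cells, were at 3480 to 14918 CPM and 5658 to 73643 CPM in their own groups and at most 377 and 390 CPM in the other.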

How the data were processed

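Cells of 4 libraries, 1 a stage, were profiled by 10x Chromium 3′ sequencing. The authors deposited unnormalised UMI counts per gene and barcode, made with Cell Ranger against mm10; the labels name version 6.0.0 for all samples and the file header at E15.5 names 3.1.0, with 31053 genes in place of 32285. Levels are sums over cells of counts thinned to 5000 UMIs, per 1000000 (CPM), not divided by gene length. Ratios have exact conditional binomial intervals, shares Clopper-Pearson intervals and levels Poisson intervals (95%), all for counting error only. Cells are not replicates, and no test was run. Phase calls used Seurat 5.3.0 (R 4.3.3) on all kept cells together; other steps used Python 3.11.15, numpy 2.4.6, scipy 1.17.1, pandas 2.3.3 and scanpy 1.11.5. Scrublet marked 0, 11, 3 and 3 kept cells as doublets in stage order; they stayed in. Members with at least 100 thinned UMIs (26) are given in every group and the other 8 by range. The members and all lists were chosen with earlier results of these data known. Scripts were tested on simulated data. Alternatives changed the cell filters, thinning, phase calling, gene minimum, offset and scaling.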

Additional observations from a re-analysis of the deposited data

Results flagged for a closer look

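The ratio of the summed level of the 34 genes between epithelial and mesenchymal cells lay below 1 in the embryonic libraries (0.915, 0.637 and 0.663 in stage order) and above 1 at P0 (1.42). With 1 library a stage the difference between stages was not tested.

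The barcodes that the filters removed also carried the 34 genes. On unthinned counts, barcodes with at least 5000 UMIs but over 6% mitochondrial UMIs held 2576, 1074, 991 and 628 CPM in stage order, and barcodes under 5000 UMIs held 1942, 1325, 991 and 586 CPM. The kept cells held 2519, 1890, 1339 and 624 CPM in the same order, so in the removed barcodes, too, E13.5 was highest and P0 lowest.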

How the results depend on the processing

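No sum or ratio changed direction under any alternative run, and the E15.5 ratio of epithelium to mesenchyme stayed below 1 and the P0 ratio above 1 in each of them. The S share depended most on the call. Scores set within each library gave 19.4% and 24.4% at E13.5 and 31.7% and 20.9% at P0 (epithelium, then mesenchyme). Requiring 10 member UMIs and more of them than of G2/M UMIs gave 8.16% and 25.2% at E13.5, 17.8% and 19.4% at E14.5 (so that E14.5 was above E13.5 in the epithelium), 1.5% and 7.77% at E15.5, and 0.870% and 0.366% at P0; dropping the G2/M condition, an alternative added after seeing the data, gave 12% in the E15.5 epithelium and 3.48% and 0.733% at P0. In the E15.5 epithelium a 3000 UMI minimum gave 19.9%, another random seed 18.8% and the other S list 22%. At P0 the 3000 UMI minimum gave 13.1% and 8.04%, and in the mesenchyme the other S list gave 7.69% and no thinning 1.10%. Without thinning, deeper cells weigh more, and the summed levels were 2318, 1741, 1118 and 768 CPM in the epithelium in stage order, and 2722 (E13.5) and 1776 (E15.5) in the mesenchyme. Epithelial cells with at most 1 epidermis UMI (added after seeing the data) gave 1026 CPM (E14.5) and 957 CPM (E15.5), and a 10% mitochondrial limit 938 CPM (E15.5). The log2 ratios without thinning were -0.28 (E14.5 tissues), 0.70 (P0 tissues), -0.41 and -0.64 (epithelium, E14.5 over E13.5 and E15.5 over E14.5), and -0.36, -0.25, -1.91 and -2.52 (mesenchyme, E14.5 over E13.5, E15.5 over E14.5, P0 over E15.5 and P0 over E13.5). The 10% limit gave -0.71 (E15.5 tissues) and -0.28 (mesenchyme, E14.5 over E13.5). Centring on the median gene gave -0.014 and 0.34 (E13.5 and P0 tissues) and -1.49 and -1.97 (mesenchyme, P0 over E15.5 and over E13.5), and leaving out mitochondrial and ribosomal protein genes gave 0.67 (P0 tissues), -1.90 and -2.50 for the same steps. Of 264 counts of genes past 1.5-fold, 49 moved by over 1.5 times, mostly in comparisons with E14.5; genes lower in E13.5 epithelium than mesenchyme went from 10 to 4 (centred), 5 (10% limit) and 6 (other seed), genes lower in E14.5 epithelium from 11 to 2 with 30 UMIs required, and genes lower from E14.5 to E15.5 in the mesenchyme from 12 to 5 without thinning. Genes higher in P0 epithelium went from 6 to 13 without thinning and 11 with 1 CPM added, and genes lower from E13.5 to P0 in the epithelium from 29 to 17 with 30 UMIs required, which leaves fewer genes to count. The shares of all genes were not counted at these settings. Other causes were not tested. No paired analysis was possible because each stage has 1 library and no test was run, and no replicate could be left out. Depth limits the 8 members with under 100 UMIs, and all single genes at E14.5.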
